A study of Rattus norvegicus with 6 samples.

Results

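The genes described here are 49 that build the DNA replication machinery or supply it with nucleotides, taken by symbol from a list made by function. The list holds no expression values, but it was chosen with earlier results of these data known. All 49 were found among the 20675 genes of the deposited rat table, and all 49 passed the filter on low values. They were measured in primary rat cells of the temporomandibular joint (TMJ) disc, the fibrous pad between the bones of the jaw joint. The Ctrl group (3 libraries) received the solvent DMSO and the GSK101 group (3 libraries) received GSK101, an agonist of the calcium channel TRPV4; both exposures lasted 24 h. The labels give no rat strain, age, sex or passage and no GSK101 dose, and no other treatment or genetic change. Since nothing ties the replicates to different animals or cultures, the p-values measure only how far these libraries spread, and that spread may be technical.

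DNA is copied once per cell cycle. In G1 phase the origin recognition complex, with Cdc6 and Cdt1, loads the MCM helicase onto origins, a step called licensing, and in S phase kinases, Cdc45 and the GINS complex turn the loaded helicase into a moving fork. At the fork DNA polymerase alpha with primase lays down primers, the clamp Pcna holds polymerases delta and epsilon on the template, and RPA covers single-stranded DNA. Ribonucleotide reductase, thymidylate synthase and thymidine kinase provide the deoxynucleotides, and CAF-1 places new histones behind the fork. Many of these genes are known targets of the E2F transcription factors, which are held in check by the RB family, and their transcripts are abundant in cycling cells and scarce in resting ones.

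As recovered from the RPKM values, the libraries held 43061102 to 45705238 reads counted to genes. The first principal component of the log values, with 55.5% of the variance, separated the groups. Col1a1 (mean 1903 RPKM in Ctrl and 1637 in GSK101) and Col3a1 (3521 and 3284) were abundant, and Tnmd was detected. The cartilage collagen Col2a1 was near 0 in both groups, at 0.0164 RPKM in each. Other cartilage genes of the list were expressed, Acan at 33.6 and 31.9 RPKM and Sox9 at 2.80 and 2.46. Trpv4 itself was low, at 0.298 ± 0.043 RPKM in Ctrl and 0.295 ± 0.019 in GSK101 (SD, n = 3 each). RPKM is the number of reads divided by gene length in kilobases, relative to the library's total of counted reads. The disc cell list summed to 5259 to 5965 RPKM in the Ctrl libraries and 4579 to 5564 in the GSK101 libraries. Of its 10 tested genes 3 were higher and 1 lower. By limma at an adjusted p under 0.05, 20.1% of all genes tested were higher and 11.9% lower. The marker lists are short, so nothing is read from their counts. Scx, a tendon and ligament transcription factor, fell from 34.7 ± 1.1 to 19.6 ± 1.8 RPKM (SD, n = 3 each; limma adjusted p = 0.000232), and the lubricin gene Prg4 rose from 10.99 ± 2.3 to 31.2 ± 9.7 (2.84-fold; limma adjusted p = 0.0037). The proteoglycan genes Lum and Dcn were also higher (limma adjusted p = 0.0161 and 0.0417). Lum lost its call without Ctrl replicate 3 or GSK101 replicate 2, and Dcn without any 1 of Ctrl replicates 1, 2 and 3 and GSK101 replicates 1 and 2. Over 18 alternatives of processing, Dcn kept its call in 8. Those that removed it included median-ratio scaling and quantile normalization. The smooth muscle and pericyte list summed to 5302 to 5506 RPKM in the Ctrl libraries and 2902 to 3168 in the GSK101 libraries, and 3 of its 5 tested genes (Acta2, Myh11 and Mcam) were lower with GSK101. Its other genes differed in level: Rgs5 was near 0, at 0.129 and 0.212 RPKM, while Cspg4 stood at 10.04 and 11.6. Mcam stood at 26.1 and 18.0. The skeletal muscle list summed to 14.1 to 15.5 against 8.64 to 9.32, with 2 of 2 tested genes lower. The leukocyte list summed to 61.8 to 79.1 against 62.8 to 83.7, with 1 of 4 tested genes (Cd14) higher. Most of these sums came from Lyz2, at 59.8 RPKM in Ctrl and 61.2 in GSK101, and Cd68 stood at 6.01 and 5.83. Ptprc and Cd3e were under 0.5 RPKM on average in both groups. Endothelial markers summed to 0.699 to 0.977 against 1.16 to 1.32 (Cdh5 at 0.0332 and 0.00769, Kdr at 0.551 and 1.01). Epithelial markers summed to 2.04 to 2.36 against 1.76 to 2.03, and Schwann markers to 22.8 to 24.0 against 24.5 to 28.96. In the endothelial list 1 of 1 tested gene (Kdr) was higher, in the Schwann list 1 of 2 (S100b) and in the epithelial list 0 of 1. The part of these marker differences in the results below was not tested.

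With GSK101 the replication genes rose almost throughout. At a Benjamini-Hochberg adjusted p under 0.05 in limma, fitted on log2(RPKM + 0.5) over 12801 genes, 44 of the 49 members were higher and 0 were lower. Over all genes tested the same rule called 20.1% higher and 11.9% lower. None of the 49 was lower at an unadjusted p under 0.05 either, and limma-voom on the recovered reads gave 44 higher and 0 lower. In 45 members all 3 GSK101 libraries lay above all 3 Ctrl libraries, against 28.5% of the genes tested.

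The estimated change varied from member to member, and apart from the ratios given below differences between members were not tested. The median log2 fold change (GSK101 minus Ctrl, on the log2(RPKM + 0.5) scale, which understates changes of low genes) was 0.54 over the members and 0.03 over all genes tested. The members ranged from -0.02 (Orc3) to 1.01 (Pola1), and 27 of 49 reached 0.5, which 7.12% of all tested genes did. As ratios of mean RPKM, 23 members reached 1.5-fold and 1, Pola1, reached 2-fold. The 5 that did not pass the test were Orc3, Orc5, Cdc7, Pold2 and Rpa3.

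Together the 49 genes took 0.137 ± 0.0030% of all counted reads in Ctrl (range 0.134 to 0.140) and 0.209 ± 0.0041% in GSK101 (range 0.206 to 0.213; SD, n = 3 each). The difference of each library from the Ctrl mean, averaged over the members, was 0.01, 0.01 and -0.02 in the Ctrl libraries and 0.55, 0.51 and 0.52 in the GSK101 libraries on the log2 scale. The 3 GSK101 libraries thus stood close to each other and well clear of Ctrl. Mki67, a proliferation marker that is no member, went from 16.1 ± 0.84 to 35.4 ± 0.26 RPKM (SD, n = 3 each). In these bulk samples a larger share of cells in S phase and more RNA of these genes per cell cannot be told apart.

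Across the 49 members the log2 fold change had a Spearman rho of 0.208 with gene length and 0.060 with the Ctrl level. The same values over all 12801 tested genes were 0.181 and -0.118. The points share the same 6 libraries and are not independent. The members' reads ran from 65 to 11480 per library, so all of them were counted above 0 in every library. Most low read numbers in the table were even, so each sequenced fragment may stand for 2 reads, and fragment numbers may be lower than these.

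**Figure D1:**
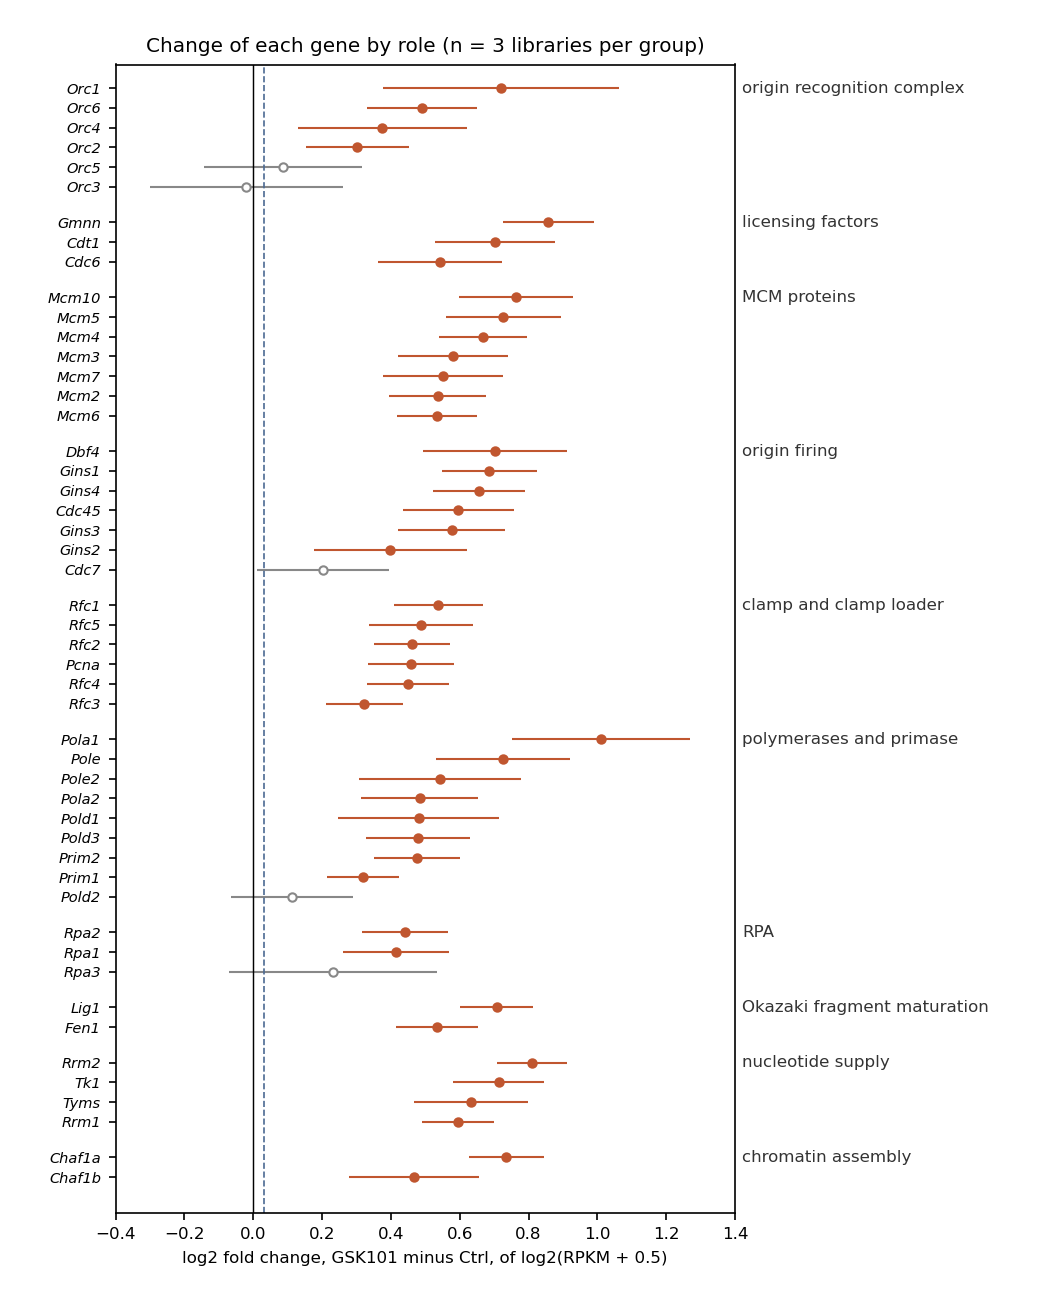
Log2 fold change (GSK101 minus Ctrl, log2(RPKM + 0.5) scale, x axis) of each of the 49 genes, grouped by role, as points with 95% confidence intervals, filled where the gene passed the test; the dashed line is the median of all tested genes. All points but Orc3 lie above 0, and Pola1 lies farthest to the right at 1.01.

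The promoters of these genes carry E2F letters more often than promoters in general, and the sequences that show it best are printed here. RefSeq promoters (build GRCr8, 250 bases before to 50 after the gene start, 300 bases in all) matched 42 of the 49 symbols. Of 33469 promoters only the first listed for each of 27457 symbols was searched, so letters in other promoters of a gene were not seen. The unmatched members are Cdc6, Gins4, Mcm4, Orc1, Orc4, Rpa3 and Rrm2. The spellings of the E2F site searched, on both strands, were TTTCCCGC, TTTGGCGC, TTTCGCGC and TTTGCCGC. They were present in 19 of the 42 member promoters (45.2%), in 4.31% of the 8489 promoters of tested genes and in 2.25% of all 27457 searched. CCAAT, the letters read by NF-Y, was in 23 of 42 member promoters (54.8%) and 38.2% of those of tested genes. TTTGAA, letters of the cell cycle element bound by DREAM, was in 5 of 42 (11.9%) against 11.4%. Of the 28 E2F matches in members, 19 began within 50 bases of the gene start. A match is a description of the letters and not a shown binding site.

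In 4 members, Gins1, Mcm2, Mcm5 and Mcm6, 2 matches on opposite strands overlap by 4 letters into a run of 12. Only 5 promoters of tested genes have this arrangement, and the fifth belongs to Topbp1. At least 2 matches of any spacing were found in 8 members (Cdt1, Gins1, Mcm2, Mcm3, Mcm5, Mcm6, Mcm7 and Rfc3, 19.0% of 42), against 0.247% of promoters of tested genes. The sequences below run 5′ to 3′ on the gene's strand, from RefSeq on GRCr8, with the E2F letters in capitals and 25 bases on each side. The first 4 are the overlapping pairs, which lie at chr4:122918072-122918133 (minus strand, Mcm2), chr3:160184870-160184931 (plus, Gins1), chr19:13488575-13488636 (plus, Mcm5) and chr13:42404455-42404516 (minus, Mcm6).
Mcm2: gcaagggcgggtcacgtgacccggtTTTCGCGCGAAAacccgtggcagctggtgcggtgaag
Gins1: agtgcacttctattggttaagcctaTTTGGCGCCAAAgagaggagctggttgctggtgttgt
Mcm5: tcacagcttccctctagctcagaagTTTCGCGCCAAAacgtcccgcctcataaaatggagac
Mcm6: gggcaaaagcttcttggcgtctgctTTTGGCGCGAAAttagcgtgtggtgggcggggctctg
The other windows show lone matches: Tyms (chr9:120776088-120776145, minus), Pola1, the member with the largest fold change (chrX:62342495-62342552, minus), and Orc3, which did not pass the test (chr5:53977857-53977914, minus).
Tyms: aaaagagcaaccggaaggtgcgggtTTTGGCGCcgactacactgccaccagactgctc
Pola1: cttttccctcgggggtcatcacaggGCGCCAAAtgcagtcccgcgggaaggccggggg
Orc3: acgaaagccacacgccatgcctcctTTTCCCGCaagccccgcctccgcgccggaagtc

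Members with and without the letters both rose. The 19 members with E2F letters had a median log2 fold change of 0.58 and 17 were higher. The 23 without them had a median of 0.48 and 21 were higher. Of the 4 matched members that did not pass the test, Orc3 and Orc5 hold the letters. Outside the list, 347 tested genes carry the letters: 116 were higher (33.4%), 26 were lower (7.49%) and their median was 0.11. Among the 8100 others without the letters, 20.8% were higher and 13.0% lower, with a median of 0.03. These splits were chosen after the values had been seen and carry no test. The median GC content was 60.2% in member promoters and 61.3% in those of tested genes. Within promoters of 60 to 65% GC, 6 of 13 members held the letters against 5.92% of tested genes.

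The origin recognition complex marks the places where replication can start. Log2 fold changes of its genes ran from -0.02 to 0.72, and differences between single genes were not tested. Of its 6 genes 4 rose and 2 did not pass the test, with a median log2 fold change of 0.34. Orc1 (chr5:128190708-128210445 on Rnor_6.0, the build of all gene positions below), the subunit whose abundance follows the cell cycle, measured 1.52, 0.944 and 1.14 RPKM in the Ctrl libraries and 2.49, 2.49 and 1.9 in the GSK101 libraries. Every GSK101 library was above every Ctrl library, and the log2 fold change was 0.72 (SE 0.15; limma adjusted p = 0.00854). Orc3 (chr5:50020815-50075454), a core subunit, measured 5.77, 7.54 and 7.79 RPKM in Ctrl and 7.48, 6.05 and 7.17 in GSK101. The groups overlapped fully, and the 95% interval of the log2 fold change of -0.02 ran from -0.30 to 0.26 (limma adjusted p = 0.919).

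Orc6, which joins the core subunits to complete the complex, rose by 0.49 (from 6.89 ± 0.29 to 9.91 ± 0.79 RPKM, SD, n = 3; limma adjusted p = 0.00182). Orc2 rose by 0.30 (limma adjusted p = 0.00993). Orc4 rose by 0.38 (limma adjusted p = 0.0296), but its adjusted p passed 0.05 without Ctrl replicate 1, Ctrl replicate 2, GSK101 replicate 2 or GSK101 replicate 3, and ran from 0.00531 to 0.0886 over all alternatives. Orc5 had a log2 fold change of 0.09 (95% interval -0.14 to 0.32; limma adjusted p = 0.542). The core subunits Orc2 to Orc5 therefore spread from -0.02 to 0.38 in log2 fold change.

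All 3 licensing factors rose, with a median log2 fold change of 0.70. Cdc6 (chr10:86819472-86833402), the ATPase that joins the origin complex to load the helicase, measured 1.97, 2.30 and 2.09 RPKM in Ctrl and 3.35, 3.19 and 3.40 in GSK101. Cdt1 (chr19:55381565-55386511), which carries the helicase to the origin, measured 3.02, 3.16 and 3.14 in Ctrl and 5.77, 5.51 and 4.87 in GSK101. Neither gene's groups overlapped, and the log2 fold changes were 0.54 (SE 0.078; limma adjusted p = 0.00195) and 0.70 (SE 0.075; limma adjusted p = 0.000599). Gmnn (chr17:42302540-42310783) encodes geminin, the inhibitor that binds Cdt1 and blocks repeat licensing within a cycle. It measured 21.5, 24.4 and 22.4 RPKM in Ctrl and 42.4, 39.96 and 42.7 in GSK101. The groups were far apart, and the log2 fold change of 0.86 (SE 0.057; limma adjusted p = 0.000107) was above that of the factor it inhibits. The log2 ratio of Cdt1 to Gmnn on plain RPKM was -2.87 ± 0.068 in Ctrl and -2.96 ± 0.15 in GSK101 (SD, n = 3; exact permutation p = 0.5), and the libraries overlapped.

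All 7 MCM genes rose, with log2 fold changes from 0.53 to 0.76. Mcm2 (chr4:120825699-120840111), whose promoter carries the overlapping E2F letters printed above, measured 28.9, 25.96 and 27.5 RPKM in Ctrl and 42.7, 39.8 and 37.6 in GSK101. The lowest GSK101 library exceeded the highest Ctrl library by a wide margin, and the log2 fold change was 0.54 (SE 0.061; limma adjusted p = 0.000771). Mcm6 (chr13:45042882-45068077), with the smallest change of the group, measured 17.97, 16.8 and 16.3 in Ctrl and 24.9, 25.2 and 24.4 in GSK101. Mcm10 (chr17:77224112-77246478), which is no part of the hexamer and helps it start to unwind DNA, measured 2.20, 1.98 and 2.13 in Ctrl and 4.10, 3.86 and 3.80 in GSK101. Its groups were also apart, and it had the largest log2 fold change of the group, 0.76 (SE 0.072; limma adjusted p = 0.000346). The hexamer subunits Mcm3, Mcm4, Mcm5 and Mcm7 had log2 fold changes of 0.58, 0.67, 0.73 and 0.55.

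The hexamer holds one copy of each subunit, yet the transcripts stood at unequal levels. Mean RPKM in Ctrl, a value per gene length, was 27.4 for Mcm2, 26.7 for Mcm3, 17.03 for Mcm6, 13.9 for Mcm7, 13.4 for Mcm4 and 9.54 for Mcm5. With GSK101 the means were 40.03, 40.2, 24.9, 20.6, 21.6 and 16.1 for the same genes. Mcm2 and Mcm3 did not differ beyond the SD of 1.4 to 2.5 RPKM between libraries in either group. Neither did Mcm4 and Mcm7 in Ctrl (SD 0.80 and 1.05 RPKM). In every GSK101 library Mcm4 lay above Mcm7. Their means there differed by more than the SD of Mcm4 (0.61 RPKM) but less than that of Mcm7 (1.6 RPKM). Mcm5 was the lowest of the 6 in both groups.

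Origin firing turns the loaded helicase into a fork, and 6 of its 7 genes rose, with a median log2 fold change of 0.60. The kinase Cdc7 and its activating subunit Dbf4 start this step together, and their transcripts moved by different amounts. Dbf4 (chr4:22898527-22914177) measured 6.14, 7.17 and 5.60 RPKM in Ctrl and 9.84, 10.7 and 11.06 in GSK101, without overlap. Its log2 fold change was 0.70 (SE 0.090; limma adjusted p = 0.00126). Cdc7 (chr14:3826659-3846891), the catalytic subunit, measured 2.57, 2.78 and 2.58 in Ctrl and 2.80, 3.30 and 3.27 in GSK101. Here the lowest GSK101 library lay just above the highest Ctrl library, and the log2 fold change of 0.20 did not pass the test (95% interval 0.01 to 0.39; limma adjusted p = 0.0987). The difference between the 2 genes' changes was not tested. Cdc45, a helicase partner, rose by 0.60, although its exons share 22.3% of their bases with Cldn5 on the opposite strand, which was near 0. The GINS subunits Gins1, Gins3 and Gins4 rose by 0.69, 0.58 and 0.66. Gins2 rose by 0.40 (limma adjusted p = 0.0160) and lost the call without Ctrl replicate 2, GSK101 replicate 1 or GSK101 replicate 2, with adjusted p from 0.00152 to 0.0605 over all alternatives.

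The clamp and its loader rose in full, 6 of 6, with a median log2 fold change of 0.46. Pcna (chr3:124880698-124884570), the ring that tethers polymerases to DNA, measured 49.4, 50.4 and 50.7 RPKM in Ctrl and 74.6, 67.3 and 65.7 in GSK101. The Ctrl libraries were nearly equal, and all GSK101 libraries lay well above them (log2 fold change 0.46, SE 0.054; limma adjusted p = 0.000845). Rfc1 (chr14:44580216-44702203), the large subunit of the loader that opens the ring, measured 8.30, 8.26 and 9.09 in Ctrl and 12.6, 12.9 and 12.4 in GSK101, a log2 fold change of 0.54 (SE 0.055; limma adjusted p = 0.0005). Rfc3 (chr12:1460538-1471357), a small subunit, measured 11.2, 10.8 and 11.7 in Ctrl and 14.03, 14.3 and 14.1 in GSK101. Its groups did not overlap either, but the log2 fold change of 0.32 (SE 0.049; limma adjusted p = 0.00240) was the smallest of the group. Rfc2, Rfc4 and Rfc5, the other small subunits, rose by 0.46, 0.45 and 0.49.

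Of the 9 polymerase and primase genes 8 rose, with a median log2 fold change of 0.48. Pola1 (chrX:62382608-62698830), the catalytic subunit of the polymerase that extends primers, measured 1.85, 2.36 and 2.65 RPKM in Ctrl and 5.40, 4.87 and 4.97 in GSK101. It more than doubled, with no overlap, and its log2 fold change of 1.01 (95% interval 0.75 to 1.27; limma adjusted p = 0.000678) was the largest of the 49. Its partner Pola2 rose by 0.48, and 5.88% of its exon bases are shared with Cdc42ep2 on the same strand. The primase genes Prim1 and Prim2 rose by 0.32 and 0.48. Pold2 (chr14:86111294-86117578), an accessory subunit of polymerase delta, measured 11.6, 11.4 and 9.65 in Ctrl and 11.6, 12.3 and 11.4 in GSK101. These overlapped, with a log2 fold change of 0.11 (95% interval -0.06 to 0.29; limma adjusted p = 0.298). The catalytic Pold1 and the accessory Pold3 rose by 0.48 each. Pole, the catalytic subunit of polymerase epsilon, rose by 0.73 (1.89-fold), and Pole2 rose by 0.54 from the lowest Ctrl level of all 49 genes, 0.912 RPKM.

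RPA protects single-stranded DNA as a trimer, and 2 of its 3 genes rose. Rpa2 (chr5:150957001-150968269) measured 7.86, 7.98 and 7.29 RPKM in Ctrl and 10.5, 10.8 and 10.6 in GSK101, with the groups apart (log2 fold change 0.44, SE 0.054; limma adjusted p = 0.00104). Rpa1, the large subunit, rose by 0.41. Rpa3 (chr4:34279320-34282351), the small subunit, measured 12.3, 18.2 and 16.8 in Ctrl and 18.8, 17.2 and 19.2 in GSK101. Ctrl replicate 1 lay below the other 5 libraries, which overlapped, and the log2 fold change was 0.23 (95% interval -0.07 to 0.53; limma adjusted p = 0.214).

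Both genes that finish Okazaki fragments, the short pieces of the lagging strand, rose. Lig1 (chr1:75356220-75394758), the ligase that seals them, measured 27.5, 26.4 and 25.7 RPKM in Ctrl and 45.2, 43.5 and 42.4 in GSK101 (log2 fold change 0.71, SE 0.046; limma adjusted p = 0.000102). Fen1 (chr1:226251518-226255886), the nuclease that trims their flaps, measured 11.1, 10.3 and 10.7 in Ctrl and 16.1, 15.9 and 15.2 in GSK101 (log2 fold change 0.53, SE 0.051; limma adjusted p = 0.000387). In both genes the groups were well apart. The Fen1 exons share 23.3% of their bases with an unnamed gene, AABR07006258.1, on the opposite strand, which was also higher. The sources used here do not state whether strand was used in counting, so reads of such pairs cannot be told apart.

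The 4 nucleotide supply genes all rose, with a median log2 fold change of 0.67. Rrm2 (chr6:43884678-43889515), the small subunit of ribonucleotide reductase whose level limits the enzyme in S phase, measured 63.6, 61.9 and 58.3 RPKM in Ctrl and 109.2, 107.8 and 106.1 in GSK101. It had the highest level of the 49 genes in Ctrl, the groups were far apart, and the log2 fold change was 0.81 (SE 0.044; limma adjusted p = 9.76e-05). Rrm1 (chr1:167538263-167562688), the large subunit, measured 42.8, 45.1 and 41.4 in Ctrl and 66.96, 63.97 and 65.2 in GSK101 (log2 fold change 0.60, SE 0.045; limma adjusted p = 0.000164). The reductase is thus represented by 2 abundant transcripts that both rose.

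Tyms (chr9:121918947-121931564), thymidylate synthase, measured 10.4, 9.33 and 9.08 RPKM in Ctrl and 15.5, 13.99 and 15.97 in GSK101 (log2 fold change 0.63, SE 0.072; limma adjusted p = 0.000765). Tk1 (chr10:106817601-106828884), the thymidine kinase of the salvage route, measured 10.4, 9.95 and 9.96 in Ctrl and 17.2, 15.7 and 17.7 in GSK101 (log2 fold change 0.71, SE 0.057; limma adjusted p = 0.000199). Tyms and Tk1 were therefore both higher at the transcript level, with no overlap between groups in either gene. This covers these genes only and not the making or salvage of thymidylate as a whole.

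CAF-1 deposits histones on newly made DNA, and both of its genes on the list rose. Chaf1a (chr9:11001129-11027506), the large subunit, measured 30.8, 29.5 and 27.9 RPKM in Ctrl and 49.8, 49.2 and 48.9 in GSK101 (log2 fold change 0.74, SE 0.047; limma adjusted p = 0.000102). Chaf1b (chr11:34101197-34121378), the middle subunit, measured 3.119, 2.55 and 2.96 in Ctrl and 4.15, 4.27 and 4.05 in GSK101 (log2 fold change 0.47, SE 0.081; limma adjusted p = 0.00426). The groups did not overlap in either gene, and Chaf1b stood far below Chaf1a in every library.

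**Figure D2:**
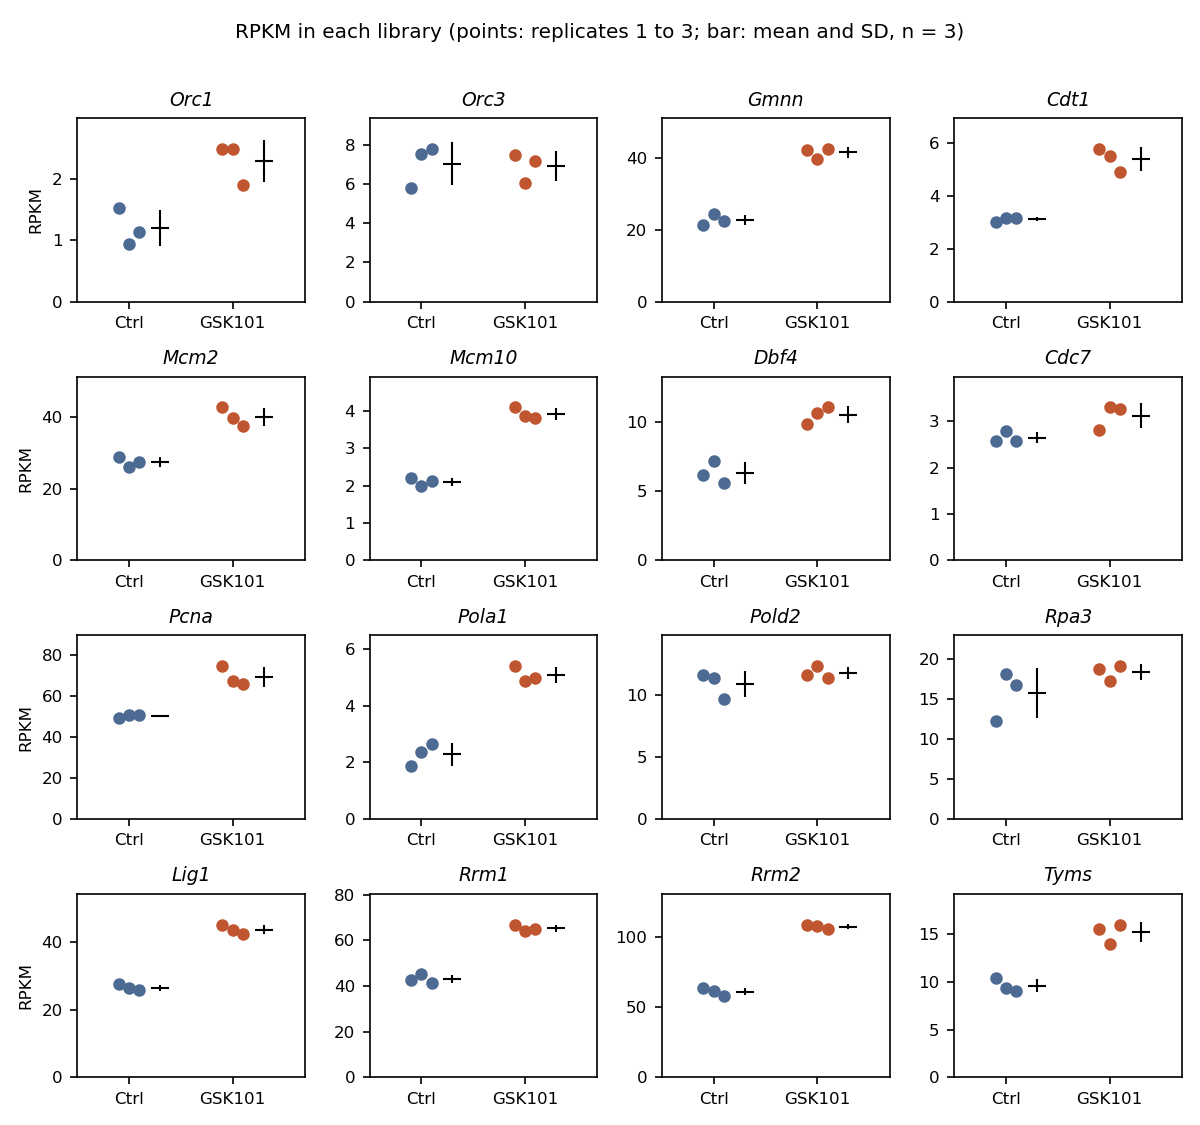
RPKM (y axis, from 0) of 16 of the 49 genes in each library, with 1 point per Ctrl or GSK101 library and a cross for the group mean and SD (n = 3). In Rrm2 the GSK101 points lie from 106.1 to 109.2 against 58.3 to 63.6 in Ctrl, while the points of Orc3, Pold2 and Rpa3 overlap.

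Ratios between genes were taken within each library as differences of log2(RPKM + 0.5), with means of several genes taken over these log values. The added 0.5 shifts ratios that hold a low gene, so ratios of plain RPKM, added after the data had been seen, are given where they differ. In all 10 ratios were compared with an exact two-sided permutation test, 3 against 3, whose smallest possible p is 0.1. None can therefore pass 0.05, and the adjusted values over the 10 ratios were 0.167 or 0.2. The ratio of Rrm2 to Rrm1 went from a log2 value of 0.50 ± 0.058 to 0.72 ± 0.028 (SD, n = 3 each), a difference of 0.21 with no overlap (exact p = 0.1). All 3 GSK101 libraries had a higher share of Rrm2 over its partner than all 3 Ctrl libraries. The mean of Mcm2 to Mcm7 over the mean of Orc2 to Orc5 went from 1.47 ± 0.21 to 1.89 ± 0.13, also with no overlap (exact p = 0.1). Helicase transcripts were higher relative to those of the core origin complex in each GSK101 library than in any Ctrl library.

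Orc6 over the mean of Orc2 to Orc5 went from 0.25 ± 0.18 to 0.55 ± 0.036 on the log2 scale (exact p = 0.1). Prim1 over Prim2 went from 1.87 ± 0.071 to 1.71 ± 0.058, lower without overlap (exact p = 0.1). Chaf1b over Chaf1a went from -3.15 ± 0.13 to -3.42 ± 0.032 (exact p = 0.1), but on plain RPKM it went from -3.36 ± 0.16 to -3.57 ± 0.036 and the groups overlapped (exact p = 0.2). The other 4 ratios of members overlapped between groups (exact p = 0.2 each). These were Orc1 over Orc2 to Orc5, the mean of Rfc2 to Rfc5 over Rfc1, Cdt1 over Gmnn and Pole2 over Pole, with differences of 0.53, -0.11, -0.15 and -0.18. On plain RPKM these differences were 0.75, -0.11, -0.08 and -0.15, all with overlap. With the trend of fold change on gene length removed, the Rfc difference turned to 0.01.

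**Figure D3:**
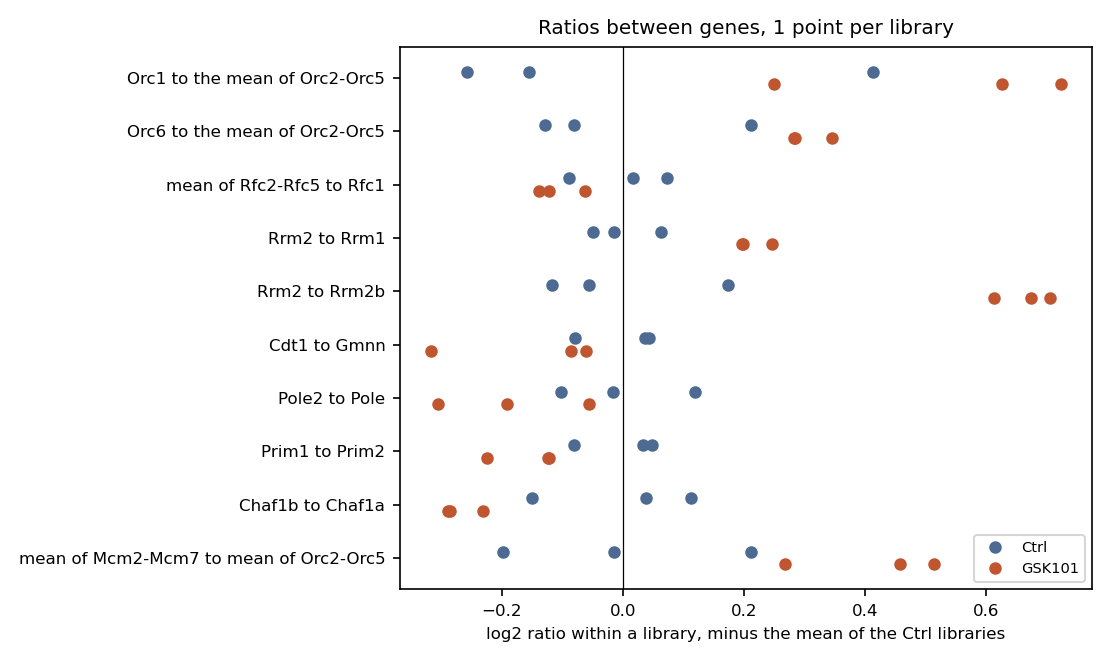
Log2 ratio of RPKM + 0.5 between genes within each library, minus the mean of the Ctrl libraries (x axis), for the 10 ratios of subunits and partners (rows), with 1 point per Ctrl or GSK101 library. The groups are apart in 6 rows, among them Rrm2 to Rrm1 with a mean difference of 0.21, and overlap in the other 4; on plain RPKM, not drawn, the groups of Chaf1b to Chaf1a overlap too.

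The wider pathway, from lists made by function with earlier results of these data known, followed in part. Of 118 tested genes outside the 49, 60 were higher (50.8%) and 5 lower, with a median log2 fold change of 0.20. Over all genes tested, 20.1% were higher and 11.9% lower. Other fork, origin and checkpoint genes came closest to the members, with 28 of 43 higher, 1 lower and a median of 0.38. Top2a, the topoisomerase that untangles copied DNA, rose from 36.5 ± 3.1 to 83.5 ± 3.6 RPKM (SD, n = 3 each; 2.29-fold; limma adjusted p = 9.76e-05). Clspn, a fork checkpoint adaptor, rose from 9.50 ± 0.87 to 18.6 ± 0.30 (1.96-fold; limma adjusted p = 0.000137). Topbp1, which helps to start forks and shares the overlapping E2F letters, rose by 0.73, and Supt16h, a histone chaperone, by 0.62.

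Some genes of the same machinery went another way. Pold4, the smallest subunit of polymerase delta, fell from 44.7 ± 4.4 to 32.8 ± 1.01 RPKM (SD, n = 3 each), a log2 fold change of -0.44 (limma adjusted p = 0.00327). The 4 delta subunit genes thus comprised 2 that rose, 1 that did not pass the test and 1 that fell. Among the epsilon genes, named after their values were seen, Pole3 rose by 0.30 (limma adjusted p = 0.0169; 0.0581 without Ctrl replicate 2) and Pole4 had a log2 fold change of 0.08 (95% interval -0.04 to 0.19; limma adjusted p = 0.281). The checkpoint kinase gene Chek1, chosen the same way, has a gene model of 58 exon blocks and 8468 bases, whose overlap with other genes was not examined. Chek1 stood at 38.7 ± 1.2 and 37.04 ± 0.34 RPKM. Its log2 fold change was -0.06 (95% interval -0.16 to 0.03; limma adjusted p = 0.274), and it was called lower only with the gene length trend removed (-0.28; limma adjusted p = 0.00488).

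Of 50 tested genes of nucleotide synthesis and salvage beyond the 4 members, 17 were higher (34.0%) and 3 lower, with a median log2 fold change of 0.11. The shares over all genes tested were 20.1% higher and 11.9% lower. Dut, which keeps uracil out of DNA, rose from 19.1 ± 0.83 to 25.2 ± 1.1 RPKM (SD, n = 3 each; limma adjusted p = 0.00155). Upp1, a uridine phosphorylase, rose from 2.22 ± 0.28 to 5.68 ± 0.68 (2.56-fold; limma adjusted p = 0.000321), and Adss, of adenine nucleotide synthesis, rose by 0.45.

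Nme2, a nucleoside diphosphate kinase with a near-identical copy in Nme1, had a log2 fold change of -0.22, Impdh1 of guanine nucleotide synthesis -0.21 and the mitochondrial folate enzyme gene Mthfd2 -0.15 (limma adjusted p = 0.0153, 0.0219 and 0.0251). Rrm2b and Samhd1, named whatever their result, did not pass the test. Rrm2b, the reductase subunit induced by p53, had a log2 fold change of 0.15 (95% interval -0.06 to 0.35; limma adjusted p = 0.256), and Samhd1, which breaks deoxynucleotides down, 0.18 (95% interval -0.13 to 0.49; limma adjusted p = 0.338). The log2(RPKM + 0.5) ratio of Rrm2 to Rrm2b went from 3.45 ± 0.15 to 4.12 ± 0.047 (SD, n = 3 each; exact permutation p = 0.1), with no overlap.

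Among 25 tested genes of the E2F, RB and S phase cyclin list, 15 were higher, 1 lower and the median log2 fold change was 0.55. Across all genes tested, 20.1% were higher and 11.9% lower. Ccne2 and Ccne1, the E cyclins that open S phase, rose from 8.03 ± 0.85 to 15.6 ± 0.73 RPKM and from 12.1 ± 0.74 to 18.2 ± 1.4 (SD, n = 3 each; limma adjusted p = 0.00027 and 0.00104). Ccna2, the cyclin of S and G2 phase, rose by 0.80, its kinase Cdk1 by 0.72 and the RB relative Rbl1 by 0.75. E2f1 is not analysed here. Lin52, a subunit of the DREAM complex, had a log2 fold change of -0.27 (limma adjusted p = 0.0310). The 5 lower calls over the 3 lists became 2 without Ctrl replicate 1, 3 without Ctrl replicate 2, 2 without GSK101 replicate 1 and 1 without GSK101 replicate 2. The lower calls of Lin52, Impdh1, Mthfd2 and Nme2 were each lost in at least 1 of these.

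**Figure D4:**
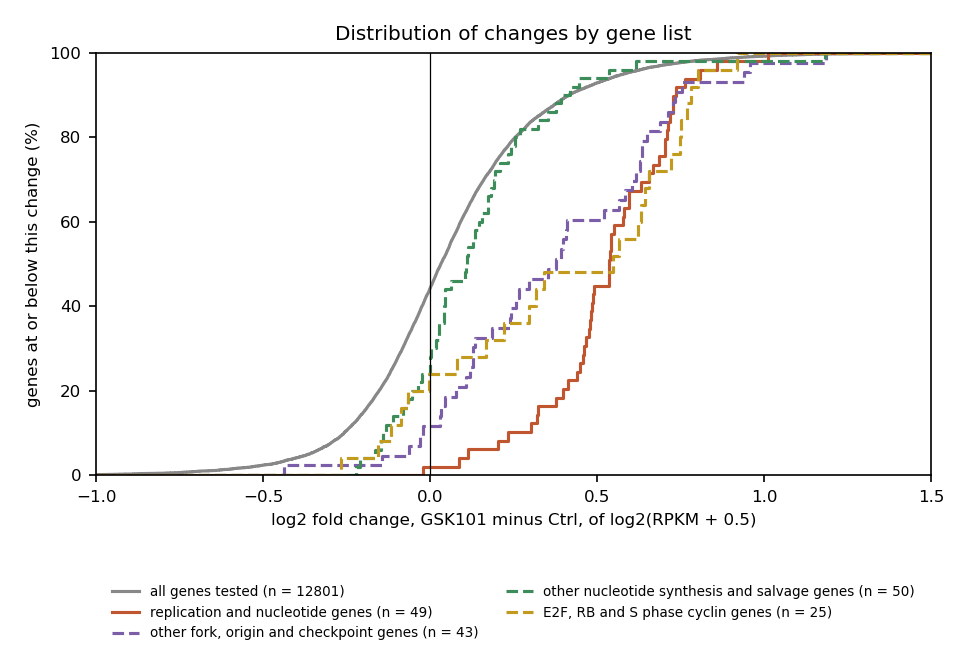
Cumulative share of genes (y axis, percent) at or below each log2 fold change (GSK101 minus Ctrl, log2(RPKM + 0.5) scale, x axis from -1 to 1.5) for all 12801 tested genes, the 49 replication genes and the 3 wider lists. The medians are 0.03 for all genes, 0.54 for the 49, 0.38 for other fork genes, 0.11 for other nucleotide genes and 0.55 for the E2F, RB and cyclin list.

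The head-to-head neighbours of these genes are given as a description. In 9 members a gene on the other strand starts within 1000 bases, head to head, on Rnor_6.0. Of these 9 partners 1 was higher and 0 were lower in limma, against 20.1% and 11.9% of all genes tested, and with 9 genes nothing is read from that count. The pair Pole and Pxmp2 had log2 fold changes of 0.73 and -0.30 (limma adjusted p = 0.219 for Pxmp2), Tk1 and Afmid 0.71 and -0.21, and Mcm4 and Prkdc 0.67 and 0.25. Cdc45 and Ufd1l had 0.60 and -0.02, and Mcm7 and Ap4m1 0.55 and 0.04. The partner that was called was Vps35, beside Orc6, with 0.32 (limma adjusted p = 0.0412; 0.00514 to 0.112 over all alternatives). These pairs were chosen after the values had been seen.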

How the data were processed

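RNA-seq of polyadenylated RNA was measured in 6 libraries, 3 Ctrl and 3 GSK101. Per the labels' protocols the libraries were stranded and carried molecular identifiers. The authors deposited RPKM values for 20675 genes. Listed without roles in the submitters' processing notes are the build Rnor_6.0, edgeR 3.12.1, Subread 1.5.1 with featureCounts, STAR 2.5.3a and Trimmomatic 0.36. The collapsing of identifiers and the use of strand are not given in the sources used here.

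RPKM times gene length, divided by its smallest nonzero value in each library, gave whole numbers, within 0.01, for 100% of values. That smallest value was taken as 1 read, and the read numbers and library totals rest on this. Even numbers made up 71.3% to 74.7% of the genes with 1 to 10 reads. Genes with at least 0.5 RPKM in at least 3 of 6 libraries (12801) were fitted on log2(RPKM + 0.5) by limma 3.58.1 (R 4.3.3), by group only, with a mean-variance trend. p-values were two-sided and Benjamini-Hochberg adjusted over all genes tested, with a threshold of 0.05. The code was tested on simulated data. Replicates were not duplicates: their reads differed by a chi-square per gene of 2.36 to 7.82, against 30.03 to 38.02 across groups.

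The members and lists were chosen with earlier results of these data known. Values per library are given for 9 preset members and for the largest and smallest change of each role group. From each wider list the 4 higher and 3 lower calls with the smallest adjusted p are named, with Rrm2b, Samhd1, E2f1 and Ccne1. Some genes that this rule names are not reported here. No reference genome sequence was used, and promoters came from RefSeq by symbol, the first listed for each.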

Additional observations from a re-analysis of the deposited data

How the results depend on the processing

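Over 18 alternatives 42 to 44 members were called higher and 0 lower. Orc4 lost its call without a filter, with quantile normalization and without each of 4 libraries, and Gins2 without each of 3 libraries. The median log2 fold change of the members was 0.56 with a pseudocount of 0.1, 0.51 with 1, 0.57 rescaled to TPM, 0.50 with median-ratio scaling, 0.48 with quantile normalization, 0.47 with the gene length trend removed and 0.56 with limma-voom. It ran from 0.51 to 0.55 with a replicate left out. Of all calls, 62.9% were higher, against 72.5% rescaled to TPM, 52.7% with median-ratio scaling, 48.1% with quantile normalization and 46.8% with the length trend removed. These scalings moved the median of all genes by at most -0.056. The 5 lower calls in the wider lists became 3 rescaled to TPM, 3 without the mean-variance trend and 1 to 6 with a replicate left out. The log2 fold change of Orc3 turned to 0.015 rescaled to TPM and ran from -0.15 to 0.066 with a replicate left out. The ratio of Rfc2 to Rfc5 over Rfc1 turned to 0.013 with the length trend removed. With no pseudocount, added after the data had been seen, 5 of the 6 ratios whose groups were apart still were, and Chaf1b over Chaf1a overlapped. The cause of these shifts was not tested. With the replicate number as a block, 44 members and 2508 genes in all were higher and 1437 lower. Same-numbered libraries did not deviate together (correlations 0.05, -0.06 and 0.05), and unlike-numbered pairs ran from -0.15 to 0.11. With so few libraries these values cannot show whether same-numbered libraries share more than a number. Reads were 65 or more for each member in each library. With 3 libraries per group, ratios cannot reach an exact p under 0.1.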
